A study of Mus musculus with 6 samples.

Results

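The genes described here are 53 markers of cells other than retinal ganglion cells (RGCs), read in RNA-seq libraries of purified mouse RGC cultures. They were listed by symbol for 9 cell classes: amacrine cells, bipolar cells, photoreceptors, macroglia, microglia, endothelial cells, mural cells, fibroblasts and oligodendrocytes. Of the 53, 51 were matched among the 43346 Ensembl genes of the tables, and *Grik1os* and *Cdh5os* were not matched. Of the 51 matched genes, 36 passed the filter on low counts and entered the tests, 9 were below it, and 6 had at most 3 counts in every library. The 9 below it were *Pcp2*, *Arr3*, *Gnat1*, *Aqp4*, *Csf1r*, *C1qa*, *Cldn5*, *Cspg4* and *Olig1*. A gene could pass the filter through 1 group alone, so the 36 stand for the markers measured well enough to test and not for the whole list.

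The cultures were made from mouse retina by immunopanning, in which cells carrying CD90.1 (the product of *Thy1*) are held on an antibody-coated dish, and were grown with forskolin, BDNF and CNTF. The 3 groups differ in the AAV added: a control vector, a vector for Sox11, which is a transcription factor of the Sry-related HMG-box family, or one for Sox11 K91A, whose lysine at position 91, a site of SUMO attachment, is an alanine. The labels name no promoter or cell type that limits where the vectors act. Each group had 2 libraries. The labels give embryonic day 18 for the sequenced cells and postnatal day 2 for the cultures in general, and the tables are named for postnatal day 0, so the age is not settled. Each well held 250000 cells, AAV was added 4 h after plating, and RNA was taken at 72 h. The labels speak of 3 RNA samples sequenced in duplicate and do not say that the duplicates came from separate cultures, so p-values measure only the spread between these libraries.

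Each class of markers stands for a job in the retina. Amacrine cells are the inhibitory interneurons of the inner retina and use GABA, glycine, acetylcholine or dopamine. Bipolar cells carry the signal from photoreceptors, which hold the opsins and the transduction cascade, to RGCs. Müller glia and astrocytes take up and recycle transmitter, microglia are the resident immune cells, and endothelial and mural cells build the vessels. The mouse retina itself normally has no oligodendrocytes, which myelinate RGC axons farther along the nerve. Some of the markers are shared with other cells. *Calb1* and *Calb2* are also made by some RGCs, *Vim* by young neurons and mesenchyme, and *Pdgfra* by astrocytes and oligodendrocyte precursors.

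Library totals ran from 27521982 to 37061718 expected counts, the number of reads that RSEM assigns to a gene. The targeted gene followed the labels. In CPM, read counts scaled to a common library size, Sox11 was at 234 and 332 with control, 9180 and 14600 with Sox11, and 12000 and 7030 with Sox11 K91A. Control replicate 2 and Sox11 replicate 2 were separated from the remaining 4 along the second principal component (18.2% of the variance). In the same pair of libraries *Xist*, transcribed from the inactive X chromosome, was low, at 95.9 and 254 CPM against 400 and 526 CPM in replicate 1 of those groups and 506 and 481 CPM with Sox11 K91A. The Y-linked *Eif2s3y* was high there, at 25.1 and 33.9 CPM against 7.66, 12.6, 12.6 and 11.9 CPM in the others. The genes thus moved in opposite directions between the 2 libraries of the control and of the Sox11 group, which repeat libraries of the same RNA would not do. In the Sox11 K91A pair they were alike, which does not tell whether that pair came from separate cultures. Its median difference between libraries over all genes tested was the smallest, at 0.156 on the log2 scale against 0.34 for control and 0.258 for Sox11. Single genes still differed within it, such as *Thy1* at 154 and 312 CPM and *Calb1* at 48.4 and 108 CPM. Whether the spread of that pair is technical was not tested. Results that rest on control replicate 2 and Sox11 replicate 2 are given with and without them.

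The summed RGC markers lay far above the summed markers of any other class, a margin that depends on the genes listed. The 12 RGC markers compared here included *Rbpms*, *Pou4f1*, *Slc17a6*, *Sncg* and *Nefl*. They summed to between 7022 and 12598 TPM, a transcript level scaled by gene length and library total. *Nefl* and *Sncg* held 51.2% of that sum. *Stmn2* and *Nefm* averaged 2090 and 1190 TPM, while the RGC factor *Pou4f2* averaged 63.6 TPM. *Clu*, a macroglial gene outside the sums, averaged 995 TPM. The 9 amacrine markers summed to 475 and 208 TPM with control, 209 and 68.6 TPM with Sox11, and 151 and 218 TPM with Sox11 K91A. Macroglial markers summed to 274 and 280 TPM with control, 509 and 522 TPM with Sox11, and 493 TPM in both Sox11 K91A libraries. No other class exceeded 30.2 TPM in any library. The sums ranged from 15.2 to 30.2 TPM for bipolar cells, 12.02 to 28.03 for mural cells, 9.03 to 29.5 for fibroblasts and 18.9 to 27.5 for oligodendrocytes. Photoreceptor, microglial and endothelial sums stayed between 0.83 and 5.05 TPM. Since the classes were summed over different numbers of genes, their order is that of these lists and not of cell numbers. In bulk samples fewer cells of a type and less RNA per cell cannot be told apart.

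**Figure D1:**
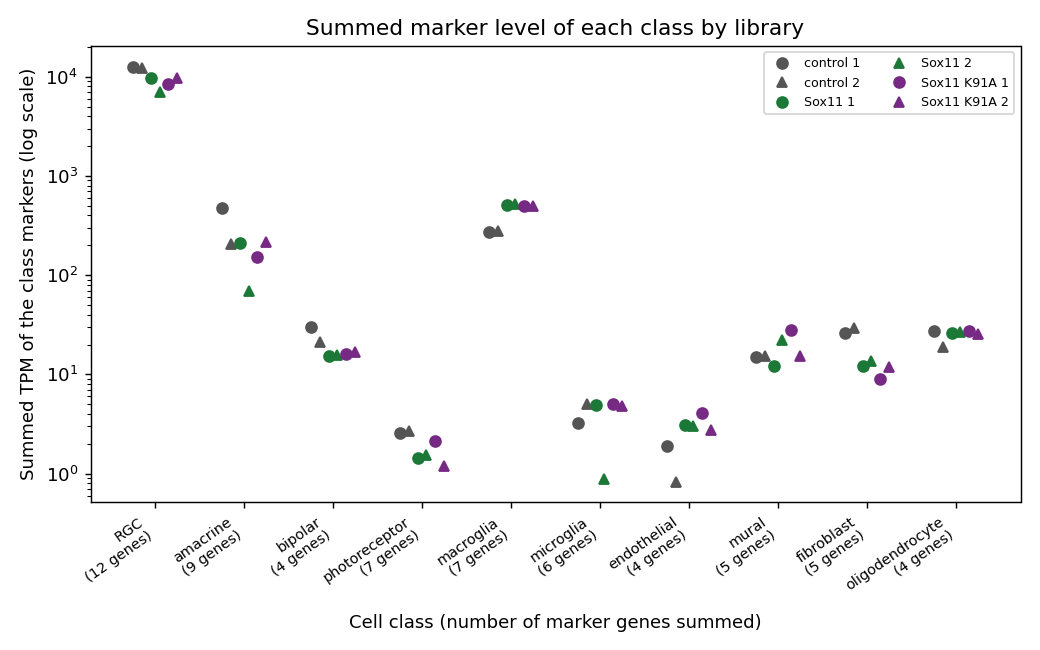
Summed TPM of the markers of each class (log scale), 1 point per library; grey is control, green Sox11 and purple Sox11 K91A, with circles for replicate 1 and triangles for replicate 2. The RGC markers lie at 7022 TPM or above, amacrine and macroglial markers between 68.6 and 522 TPM, and the other classes at or below 30.2 TPM.

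Gene by gene, most of the markers were low. The median over the 51 matched markers was 0.585 TPM (mean of the 6 libraries), against 258 TPM over the RGC markers and 16.8 TPM over all 15747 genes tested. Of the 51, 29 averaged under 1 TPM and 11 at least 10 TPM. Only 4 exceeded *Ebf1*, which at 49.7 TPM was the lowest of the RGC markers: *Vim* at 250 TPM, *Glul* at 176 TPM, *Calb1* at 94.5 TPM and *Calb2* at 60.1 TPM. A few genes made up most of several sums. *Vim* and *Glul* held 99.3% of the macroglial sum, *Mbp* and *Mog* 99.6% of the oligodendrocyte sum, *Acta2* and *Tagln* 96.8% of the mural sum, *Prkca* 90.1% of the bipolar sum and *Thbs1* 87.5% of the fibroblast sum.

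**Figure D2:**
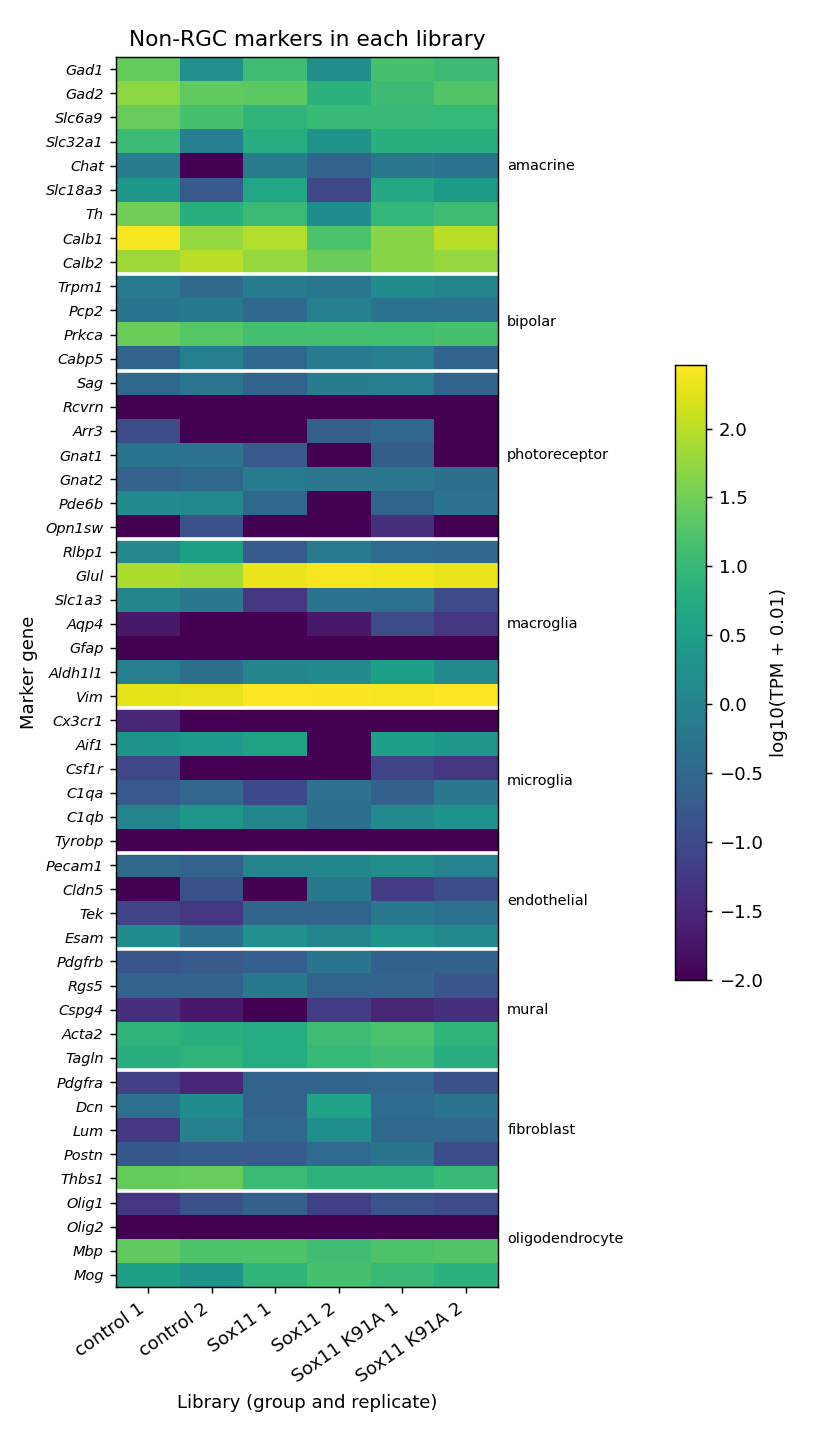
Level of the 51 matched markers (rows, grouped by cell class) in the 6 libraries (columns) as log10(TPM + 0.01). *Vim*, *Glul*, *Calb1* and *Calb2* are bright in most libraries, *Rcvrn*, *Gfap*, *Tyrobp* and *Olig2* are at 0 in all, and several amacrine genes darken in control replicate 2 and Sox11 replicate 2.

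Several of the most specific markers were not detected or had a few counts. *Rcvrn* (recoverin, of photoreceptors), *Gfap* (the astrocyte intermediate filament), *Tyrobp* (a microglial signalling adaptor) and *Olig2* (an oligodendrocyte lineage factor) had 0 counts in all 6 libraries. *Opn1sw*, the short-wave cone opsin, had 3 counts in control replicate 2 and 1 in Sox11 K91A replicate 1. *Cx3cr1*, the fractalkine receptor of microglia, had 1 count, in control replicate 1. A count of 0 allows a level of up to 3 counts, which was 0.0809 to 0.109 CPM in these libraries. This floor covers counting error only. The cells were embryonic or newborn by the labels, so a 0 does not show that no cell of the lineage was present. Whether immature cells of these classes were in the cultures was not tested.

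With Sox11, 7 of the 36 tested markers passed the threshold against control (limma-voom, false discovery rate under 0.05 and fold change above 1.2), which is 19.4%, beside 20.1% of all genes tested. Higher were 3, *Glul*, *Pdgfra* and *Mog*, beside 9.96% of all genes, and lower were 4, *Slc6a9*, *Prkca*, *Pde6b* and *Thbs1*, beside 10.2%. With Sox11 K91A, 6 of 36 passed (16.7%, beside 10.6% of all genes). Of these, *Glul*, *Pecam1* and *Tek* were higher, beside 5.81% of all genes, and *Slc6a9*, *Prkca* and *Thbs1* were lower, beside 4.81%. *Pdgfra*, *Tek* and *Gnat2* passed the filter through the Sox11 and Sox11 K91A libraries alone, so a difference from control in them could only be upward. Both comparisons use the same control libraries, so what they share is not independent. The median log2 fold change of the tested markers was 0.02 with Sox11 and 0.28 with Sox11 K91A, against 0.01 and 0.02 over all genes. Groups did not overlap in CPM for 19 of 36 markers in each comparison with control, a pattern seen in 61.5% and 61.9% of all genes.

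These counts depended on single libraries. Without Sox11 replicate 2, limma-voom called 0 markers and 0 genes in all for Sox11 against control, although 3347 genes had an unadjusted p under 0.05. Without control replicate 2 the count for Sox11 fell to 4, and for Sox11 K91A against control 0 markers and 0 genes passed, with 4753 genes at an unadjusted p under 0.05. For Sox11 K91A, 0 markers passed without Sox11 K91A replicate 1 and 2 without its replicate 2. Without both libraries that stood apart, 8 of 35 markers passed with Sox11, beside 13.1% of the 15928 genes tested, and 12 with Sox11 K91A, beside 25.8%, in a fit whose spread came from the Sox11 K91A pair alone and which assumes that the single control and Sox11 libraries vary like that pair.

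**Figure D3:**
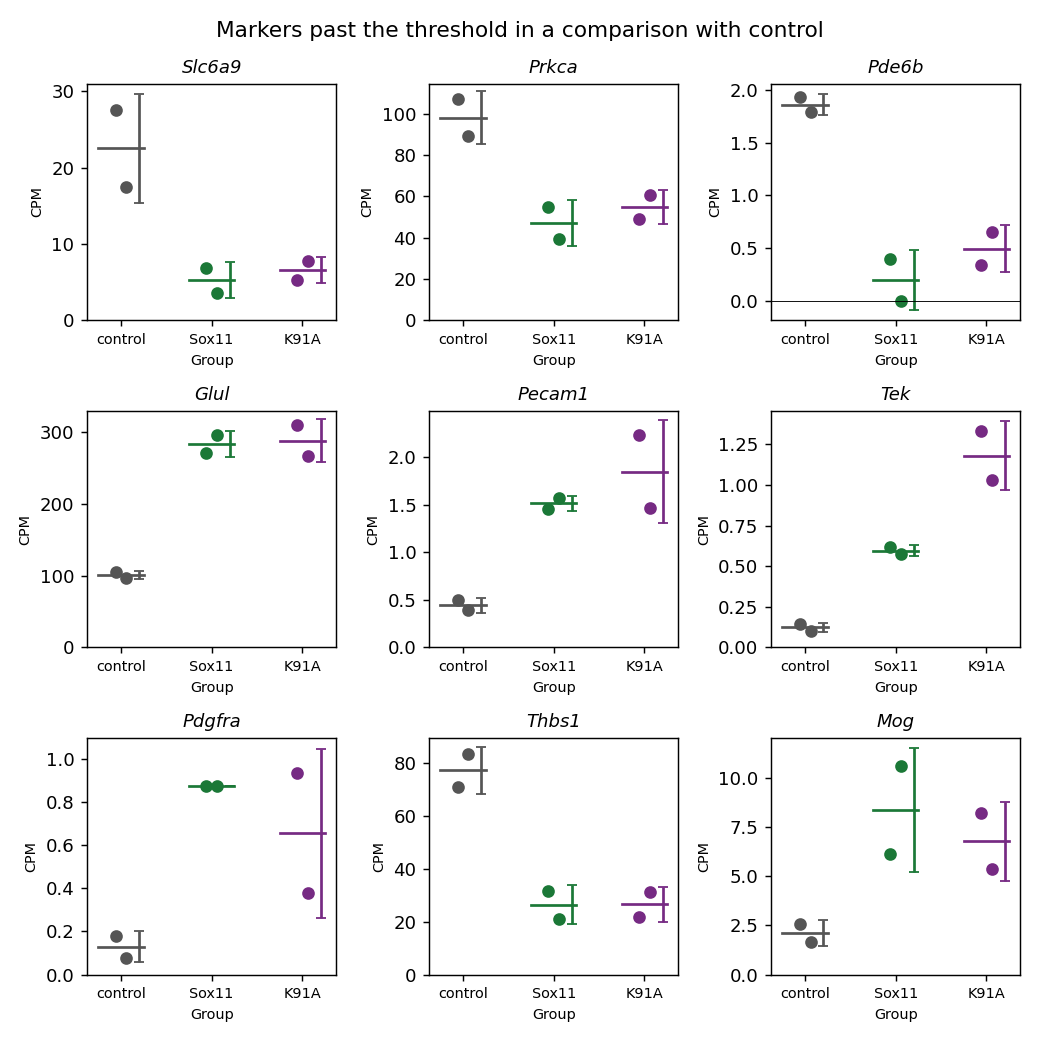
CPM of the 9 markers past the threshold in a comparison with control; points are the 2 libraries of a group, horizontal lines their mean, and bars 1 SD. For *Glul* both Sox11 and both Sox11 K91A libraries lie at 267 CPM or above, over the control libraries at 97.2 and 105 CPM, and for *Thbs1* both groups lie at 31.6 CPM or below, under the control libraries at 71.0 and 83.5 CPM.

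No marker differed detectably between Sox11 K91A and Sox11. limma-voom called 0 of 15747 genes in this comparison and 108 had an unadjusted p under 0.05. The edgeR quasi-likelihood test also called 0, with 88 genes at an unadjusted p under 0.05, and DESeq2 called 2 genes, *Gm26825* and a gene without a symbol, neither of them a marker. None of the 36 markers had an unadjusted p under 0.05 by limma-voom. Groups did not overlap for 4 of 36 markers, beside 26.6% of all genes. For *Glul* the difference was 0.02 on the log2 scale (95% confidence interval -0.33 to 0.37), and for *Thbs1* it was 0.02 (-0.60 to 0.64). Intervals were wide for the amacrine genes, from -1.30 to 4.61 for *Gad1*, so differences of several fold would not have been detected there.

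The 250 bases before the RefSeq start of each gene were searched for the short motifs ACAAAG and ACAATG on both strands, to which HMG-box factors of the Sox family are known to bind. Of 32851 RefSeq promoters, 25.2% held at least 1 match. Among the 9 markers past the threshold the letters were found before *Slc6a9*, at 1 of its 3 listed starts, and before *Tek*. They were not found in this window for *Glul*, *Prkca*, *Pde6b*, *Pdgfra* or *Mog*, and *Pecam1* and *Thbs1* were not searched. Both matches follow, with the motif in capitals, 5′ to 3′ on the plus strand of GRCm38.p6. The first lies at chr4:117855476-117855505, where CTTTGT is the reverse complement of ACAAAG and its last base is 54 bases before the start. The second lies at chr4:94739251-94739280, with the last base of the motif 21 bases before the start.
Slc6a9: ggacacaggcccCTTTGTttccggcttgac
Tek: accttacttgtaACAAAGatccctctgccc
A match of this length is a description of the sequence, and occupancy was not measured.

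Most amacrine markers differed widely between the 2 replicates of the control and of the Sox11 group. With Sox11 K91A the ratio of the higher to the lower replicate in CPM ran from 1.06 (*Slc32a1*) to 2.23 (*Calb1*). All 9 passed the filter. In the list are both GABA-synthesising enzymes (*Gad1*, *Gad2*), the vesicular transporter for GABA and glycine (*Slc32a1*), the glycine transporter GlyT1 (*Slc6a9*), the enzyme and the vesicular transporter for acetylcholine (*Chat*, *Slc18a3*), tyrosine hydroxylase of dopaminergic cells (*Th*), and the calcium-binding proteins calbindin and calretinin (*Calb1*, *Calb2*). Of the 9, 8 were lower in replicate 2 than in replicate 1 of both the control and the Sox11 group, beside 28.3% of all genes tested, and *Calb2* was the exception. For 6 of the 9 the drop was over 2-fold in both groups, beside 2.22% of all genes and 0 of 12 RGC markers. The low libraries were those that stood apart. Whether what the *Xist* and *Eif2s3y* levels of these libraries reflect had a part in this was not tested.

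*Gad1* was at 36.2 and 2.83 CPM with control, 17.5 and 2.23 CPM with Sox11, and 19.7 and 17.2 CPM with Sox11 K91A. The second library of the control and of the Sox11 group was therefore the low one, while the Sox11 K91A pair lay close together. *Slc32a1* followed with 14.6 and 1.22 CPM, 7.68 and 2.59 CPM, and 9.09 and 8.57 CPM in the same order. *Slc18a3* had 2.65 and 0.208 CPM with control, 4.59 and 0.0905 CPM with Sox11, and 5.46 and 2.98 CPM with Sox11 K91A. *Chat*, whose locus contains *Slc18a3*, had 28 and 0 counts with control, 27 and 12 with Sox11, and 26 and 20 with Sox11 K91A. In control replicate 2 the cholinergic pair was thus at 8 counts of *Slc18a3* and 0 of *Chat*. None of these 4 genes passed the threshold in a comparison with control, and for *Gad1* and Sox11 against control the 95% interval of the log2 fold change ran from -3.73 to 2.55.

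*Th* had 25.5 and 6.05 CPM with control, 8.84 and 1.18 CPM with Sox11, and 7.48 and 9.81 CPM with Sox11 K91A. *Calb1*, the most abundant marker of the class, had 234 and 82.2 CPM, 89.7 and 13.0 CPM, and 48.4 and 108 CPM. Control replicate 1 was the highest library for both genes and Sox11 replicate 2 the lowest. *Gad2* was at 140 and 71.5 CPM with control, 52.6 and 20.6 CPM with Sox11, and 28.5 and 48.3 CPM with Sox11 K91A, so that the control libraries lay above all others. Its log2 fold change was -1.63 (SE 0.50, adjusted p = 0.0604, limma-voom) with Sox11 and -1.44 (SE 0.49, adjusted p = 0.104) with Sox11 K91A, neither past the threshold. *Calb2* had 41.7 and 68.2 CPM with control, 34.7 and 17.4 CPM with Sox11, and 28.4 and 35.8 CPM with Sox11 K91A, with adjusted p = 0.064 and 0.197.

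**Figure D4:**
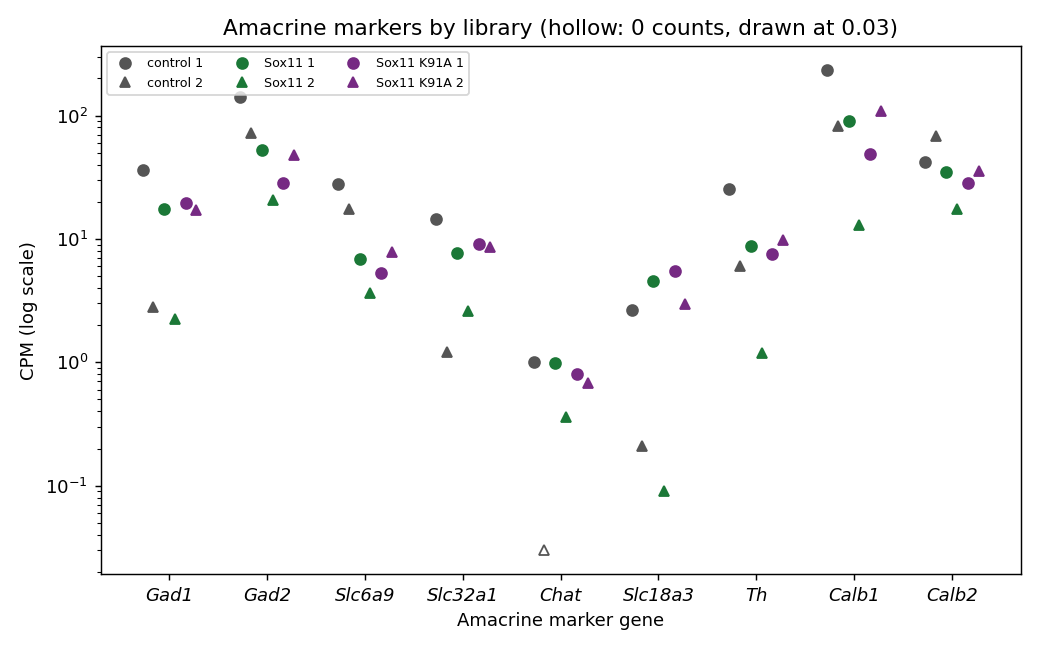
CPM of the 9 amacrine markers in each library (log scale), with circles for replicate 1 and triangles for replicate 2; the hollow triangle marks 0 counts of *Chat*. The grey and green triangles fall below the circle of the same colour for every gene but *Calb2*, whose control triangle at 68.2 CPM lies above the circle at 41.7 CPM.

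*Slc6a9* (chr4:117834506-117875198 on GRCm38) was the only gene of the amacrine list past the threshold. Whether amacrine cells or RGCs carried the difference was not tested. It had 27.6 and 17.5 CPM with control, 6.92 and 3.62 CPM with Sox11, and 5.34 and 7.78 CPM with Sox11 K91A. Both control libraries lay above all 4 others. The log2 fold change was -2.14 (SE 0.40, adjusted p = 0.018, limma-voom) with Sox11 and -1.75 (SE 0.37, adjusted p = 0.0338) with Sox11 K91A. It was -1.99 (adjusted p = 0.0266) and -2.10 (adjusted p = 0.0089) without both libraries that stood apart. On the length-scaled values the difference was smaller in size, at -1.02 (adjusted p = 0.0694) and -0.91 (adjusted p = 0.119) on the log2(TPM + 1) scale, and did not pass. Its exons overlap *B4galt2* and *Ccdc24* on the other strand, its expected counts were not all whole numbers, and the use of strand in counting is not stated.

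Without control replicate 2 and Sox11 replicate 2, 4 of the 9 amacrine genes passed as lower with Sox11, beside 7.05% of all genes in that fit, and 6 with Sox11 K91A, beside 14.4%. *Slc6a9* was among them in both. In the same fit *Gad1* changed by -1.04 (SE 0.18, adjusted p = 0.0304, limma-voom), *Gad2* by -1.40 (SE 0.32, adjusted p = 0.0441) and *Th* by -1.52 (SE 0.24, adjusted p = 0.0288) on the log2 scale with Sox11. With Sox11 K91A the same genes changed by -0.97, -1.92 and -1.58 (adjusted p = 0.0117, 0.011 and 0.0095). *Slc32a1* and *Calb1* also passed there with Sox11 K91A, at -0.72 and -1.70 (adjusted p = 0.0352 and 0.0381). These values rest on 1 control library, which was the highest of all 6 for *Gad1*, *Gad2*, *Slc32a1*, *Th* and *Calb1*.

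Of 6 other amacrine genes listed for comparison, 4 passed the filter and none passed the threshold. The amacrine transcription factors *Tfap2a* and *Tfap2b* shared the replicate difference: *Tfap2b* had 11.0 and 2.41 CPM with control, 20.7 and 5.79 CPM with Sox11, and 25.8 and 16.7 CPM with Sox11 K91A. In *Tfap2a* it was 3.22 and 0.363 CPM, 6.51 and 2.65 CPM, and 7.6 and 4.6 CPM. Unlike *Gad2* and *Slc6a9*, both genes had a control mean below those of the Sox11 groups. Their adjusted p-values did not pass.

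**Figure D5:**
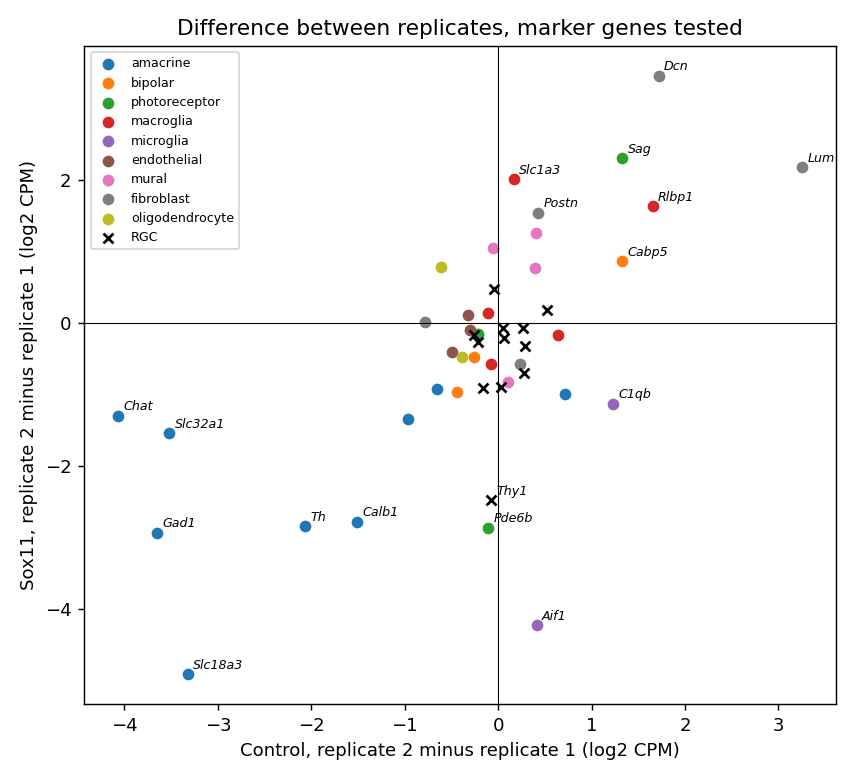
Difference between replicate 2 and replicate 1 in log2 CPM, with the default offset of edgeR for low counts. The control group is on the x axis and the Sox11 group on the y axis. Points are the 36 tested markers by class, and crosses the 12 RGC markers. Of the 9 amacrine genes, 8 lie at the lower left, while *Dcn*, *Lum*, *Sag* and *Rlbp1* lie over 2-fold higher in both.

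Of the 5 fibroblast markers, 2, *Dcn* and *Lum*, were over 2-fold higher in replicate 2 of both the control and the Sox11 group. *Dcn* (decorin) had 0.358 and 1.32 CPM with control, 0.218 and 3.02 CPM with Sox11, and 0.279 and 0.446 CPM with Sox11 K91A. *Lum* (lumican) had 1 and 34 counts, 8 and 51 counts, and 9 and 9 counts in the same order. Both matrix proteoglycans were thus highest in Sox11 replicate 2 and next highest in control replicate 2, over 2-fold above replicate 1 in both groups, a pattern of 0.895% of all genes. *Sag* (rod arrestin) and *Rlbp1* (the retinaldehyde-binding protein of Müller glia) shared it. *Sag* had 5 and 21 counts with control, 3 and 26 with Sox11, and 18 and 7 with Sox11 K91A. *Rlbp1* had 32 and 144 counts with control and 5 and 23 with Sox11. *Postn*, a matrix protein, was also higher in replicate 2 of both groups. It had 6 and 12 counts with control, 4 and 18 with Sox11, and 19 and 5 with Sox11 K91A. The 5 fibroblast genes listed for comparison were mixed. *Col3a1*, a collagen chain, was higher in replicate 2, at 1.22 and 2.23 CPM with control and 0.728 and 6.15 CPM with Sox11. *Fn1* (fibronectin) was lower in replicate 2, at 206 and 116 CPM with control and 149 and 29.7 CPM with Sox11. *Fbln2* was also lower in both groups. *Col1a1*, another collagen chain, was lower in replicate 2 of control (6.15 and 2.85 CPM) and higher in replicate 2 of Sox11 (3.13 and 6.58 CPM), and *Col1a2* did the same. None of these genes passed the threshold in any comparison.

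*Thbs1* (chr2:118111876-118127133), the secreted matrix protein thrombospondin 1, was the abundant member of the fibroblast list and did not follow *Dcn* and *Lum*. It had 71.0 and 83.5 CPM with control, 31.6 and 21.2 CPM with Sox11, and 21.8 and 31.3 CPM with Sox11 K91A. Control libraries lay above all others. The log2 fold change was -1.58 (SE 0.25, adjusted p = 0.0134, limma-voom) with Sox11 and -1.56 (SE 0.24, adjusted p = 0.0199) with Sox11 K91A. Without both libraries that stood apart it was -1.16 (adjusted p = 0.0377) and -1.45 (adjusted p = 0.0109). *Pdgfra* (chr5:75152292-75198215), a growth factor receptor, had 5 and 3 counts with control, 24 and 29 with Sox11, and 30 and 11 with Sox11 K91A. It passed with Sox11 only at the edge (log2 fold change 2.79, SE 0.79, adjusted p = 0.0493), and the call was lost in 14 of 19 alternatives. With Sox11 K91A the value was 2.26 (adjusted p = 0.117), and for Sox11 without both libraries that stood apart it was 2.18 (adjusted p = 0.201). With control at 5 and 3 counts, both below the filter, the size of these folds is uncertain. The gene entered the test through the Sox11 and Sox11 K91A libraries alone, so it could only come out higher. The difference in *Pdgfra* between the Sox11 groups was -0.52 (95% interval -1.92 to 0.87).

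The macroglial members were led by *Glul* and *Vim*, and the genes most specific to astrocytes were absent or near 0. *Glul* (chr1:153899944-153909723), glutamine synthetase, which turns glutamate into glutamine in Müller glia, had 105 and 97.2 CPM with control, 271 and 297 CPM with Sox11, and 310 and 267 CPM with Sox11 K91A. All 4 Sox11 and Sox11 K91A libraries lay above both control libraries. This was a rise of 1.49 on the log2 scale (SE 0.15, adjusted p = 0.0083, limma-voom) with Sox11, or 2.81-fold, and of 1.51 (SE 0.15, adjusted p = 0.0094) with Sox11 K91A, or 2.85-fold. It remained at 1.37 (adjusted p = 0.025) and 1.46 (adjusted p = 0.0084) without both libraries that stood apart. The rise lost its adjusted p without Sox11 replicate 2 (0.0654) and, for Sox11 K91A, without control replicate 2 (0.0531) or Sox11 K91A replicate 1 (0.0823), while the fold stayed at 1.41 to 1.46 on the log2 scale.

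No other macroglial member passed the threshold. *Vim* (vimentin) had 123 and 191 CPM with control, 199 and 177 CPM with Sox11, and 183 and 202 CPM with Sox11 K91A, overlapping between the groups. Its adjusted p was 0.362 and 0.352. Against control replicate 1 alone, the lower of the control pair, it passed as higher in both comparisons, by 0.70 and 0.65 on the log2 scale (adjusted p = 0.0344 and 0.0155 without both libraries that stood apart). *Rlbp1* averaged 2.44 CPM with control, 0.438 CPM with Sox11 and 0.325 CPM with Sox11 K91A (11 and 9 counts), a difference in the opposite direction to *Glul* that did not pass (adjusted p = 0.0901 and 0.103). *Slc1a3*, the glutamate transporter GLAST, was at 25 and 39 counts with control, 2 and 16 with Sox11, and 28 and 6 with Sox11 K91A. *Aldh1l1*, an astrocyte enzyme of folate metabolism, ranged from 0.675 to 1.61 CPM. *Aqp4*, the water channel of glial endfeet, had at most 8 counts, and *Gfap* had none. Of 6 other macroglial genes, which are not in the sums, *Clu* and *Dkk3* were abundant. *Clu* (clusterin, a secreted chaperone) was at 2010 and 1300 TPM with control, 865 and 291 TPM with Sox11, and 542 and 953 TPM with Sox11 K91A, above *Glul* and *Vim* in mean level. Its log2 fold change was -1.78 (SE 0.52, adjusted p = 0.054, limma-voom) with Sox11 and -1.23 (SE 0.53, adjusted p = 0.168) with Sox11 K91A, opposite in sign to *Glul* and not past the threshold. *Dkk3*, a secreted glycoprotein, was at 312 and 213 TPM with control, 207 and 123 TPM with Sox11, and 166 and 214 TPM with Sox11 K91A, with log2 fold changes of -0.78 (adjusted p = 0.0939) and -0.51 (adjusted p = 0.283). *S100b*, a calcium-binding protein, had 13 and 18 counts with control, 2 and 0 with Sox11, and 9 and 6 with Sox11 K91A. It entered the test through the control libraries alone, so it could only come out lower, and its adjusted p with Sox11 was 0.0428, and 0.167 without both libraries that stood apart. *Sox9*, a glial transcription factor, had 19 and 90 counts with control and at most 19 elsewhere.

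Bipolar markers other than *Prkca* had at most 46 counts. *Prkca* (chr11:107933387-108343928), protein kinase C alpha, a marker of rod bipolar cells that other neurons also make, had 107 and 89.0 CPM with control, 54.9 and 39.2 CPM with Sox11, and 48.9 and 60.7 CPM with Sox11 K91A. Every Sox11 and Sox11 K91A library lay below both controls. The log2 fold change was -1.08 (SE 0.21, adjusted p = 0.0202, limma-voom) with Sox11 and -0.84 (SE 0.21, adjusted p = 0.0488) with Sox11 K91A. Without both libraries that stood apart it was -0.96 (adjusted p = 0.0333) and -0.97 (adjusted p = 0.0123). The second call lay at the threshold and was lost in 10 of the 20 alternatives tried. *Trpm1*, the cation channel of ON bipolar cells, had 37 and 37 counts with control, 26 and 15 with Sox11, and 41 and 46 with Sox11 K91A. *Cabp5*, a calcium-binding protein, ranged from 3 to 21 counts and *Pcp2*, a regulator of G protein signalling, from 4 to 18 counts. Among 7 other bipolar genes, *Grik1*, a kainate receptor subunit, was lower with Sox11 at 11.5 and 2.02 CPM against 33.9 and 22.4 CPM (log2 fold change -2.57, adjusted p = 0.0462). It was -1.56 (adjusted p = 0.0832) without both libraries that stood apart. The bipolar factors *Vsx1*, *Otx2* and *Bhlhe23* and the receptor *Grm6* had at most 6 counts in any library.

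Photoreceptor genes gave no library a sum above 2.66 TPM. *Pde6b* (chr5:108388391-108432397), a subunit of the rod phosphodiesterase, had 54 and 69 counts with control, 11 and 0 with Sox11, and 11 and 19 with Sox11 K91A. The controls were above all other libraries. With Sox11 the log2 fold change of -4.68 (SE 1.22, adjusted p = 0.0396, limma-voom) depended on the library at 0: without Sox11 replicate 2 it was -2.15 (adjusted p = 0.175), and without both libraries that stood apart it was -2.22 (adjusted p = 0.0889). The call was lost in 11 of 19 alternatives. With Sox11 K91A the value was -1.95 (adjusted p = 0.148), and -2.01 (adjusted p = 0.0397) without both libraries. *Gnat2*, the cone transducin, had 7 and 8 counts with control and 14 to 17 in the other libraries (adjusted p = 0.176 and 0.296). Its control libraries were both below the filter, so it could only come out higher. *Gnat1*, the rod transducin, had 8 and 23 counts with control and at most 4 elsewhere, and *Arr3*, cone arrestin, had at most 5 counts.

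Microglial genes were near 0 apart from *Aif1* and *C1qb*. *Aif1*, which encodes the actin-binding protein Iba1, had 17 and 32 counts with control, 31 and 0 with Sox11, and 33 and 21 with Sox11 K91A. *C1qb*, a complement subunit, had 12 and 42, 13 and 6, and 19 and 24 counts in the same order. Sox11 replicate 2 was the lowest library for both genes, and neither passed the threshold (adjusted p = 0.248 and 0.26 with Sox11). *C1qa*, the partner subunit of *C1qb*, had 1 to 7 counts and *Csf1r*, the receptor for colony-stimulating factor 1, at most 5. Of 9 other microglial genes 6 had at most 3 counts in every library, including *P2ry12*, *Tmem119* and *Trem2*.

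The endothelial genes *Pecam1* and *Tek* rose with Sox11 K91A, on small counts. *Pecam1* (chr11:106654217-106750628), the adhesion molecule CD31, had 14 and 15 counts with control, 40 and 52 with Sox11, and 72 and 43 with Sox11 K91A. *Tek* (chr4:94739289-94874976), the angiopoietin receptor, had 4 and 4, 17 and 19, and 43 and 30 counts. For each gene both control libraries lay below all 4 others. With Sox11 K91A, *Pecam1* rose by 2.03 on the log2 scale (SE 0.50, adjusted p = 0.0468, limma-voom) and *Tek* by 3.14 (SE 0.63, adjusted p = 0.0305). With Sox11 the values were 1.76 (SE 0.51, adjusted p = 0.0504) for *Pecam1* and 2.18 (SE 0.67, adjusted p = 0.0602) for *Tek*, short of the threshold. Without both libraries that stood apart the log2 fold change with Sox11 K91A was 1.84 (adjusted p = 0.0816) for *Pecam1* and 2.90 (adjusted p = 0.0497) for *Tek*. The Sox11 K91A call was lost in 14 of 20 alternatives for *Pecam1* and in 7 of 19 for *Tek*. With 4 counts in each control library, both below the filter, the size of the *Tek* fold is uncertain. *Tek* entered the test through the Sox11 and Sox11 K91A libraries alone, so it could only come out higher. The difference between the Sox11 groups was 0.27 for *Pecam1* (95% interval -0.65 to 1.19) and 0.97 for *Tek* (-0.13 to 2.06).

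*Esam*, a junctional adhesion molecule, had 16 and 15 counts with control, 27 and 24 with Sox11, and 34 and 28 with Sox11 K91A, and did not pass (adjusted p = 0.278 and 0.19). *Kdr*, the VEGF receptor VEGFR2, listed for comparison, was higher in level than these, with 118 and 121 counts with control, 193 and 124 with Sox11, and 262 and 190 with Sox11 K91A. It did not pass (adjusted p = 0.395 and 0.114). Several other endothelial genes were near 0. *Cldn5*, the tight junction protein of the blood-retina barrier, had 0 and 3 counts with control, 0 and 12 with Sox11, and 1 and 2 with Sox11 K91A. *Cdh5* and *Emcn*, an adhesion protein and a sialomucin of endothelium, had at most 2 counts per library. *Egfl7*, a secreted endothelial factor, was lower, at 2.51 and 0.664 CPM with Sox11 and 1.86 and 3.50 CPM with Sox11 K91A against 9.41 and 11.9 CPM with control (adjusted p = 0.0179 and 0.0409). In the fit without both libraries its log2 fold change was -1.89 in each comparison (adjusted p = 0.0494 and 0.0169). Of the 59 genes listed beside the members, 31 were tested. *Grik1*, *S100b* and *Egfl7* were the 3 that passed with Sox11 (9.68%, beside 20.1% of all genes in either direction) and *Egfl7* the 1 with Sox11 K91A (3.23%, beside 10.6%), all lower.

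Mural markers were present at a low level and none passed the threshold. *Acta2*, smooth muscle actin, had 174 and 231 counts with control, 121 and 302 with Sox11, and 388 and 196 with Sox11 K91A. *Tagln*, an actin-binding protein of the same cells, had 4.54 and 5.99 CPM, 3.79 and 6.49 CPM, and 8.6 and 4.46 CPM in the same order. Sox11 K91A replicate 1 was the highest library for both and Sox11 replicate 1 the lowest. *Pdgfrb*, the pericyte receptor, ranged from 10 to 46 counts, *Rgs5*, a regulator of G protein signalling in pericytes, from 8 to 25, and *Cspg4*, the proteoglycan NG2, from 0 to 7. The adjusted p of the 4 tested mural genes ran from 0.269 to 0.917 with Sox11 and from 0.391 to 0.738 with Sox11 K91A.

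In the oligodendrocyte list the myelin genes were detected and the lineage factors were at or near 0. *Mbp*, myelin basic protein, whose locus also makes transcripts in neurons, had 48.5 and 37.0 CPM with control, 35.3 and 25.2 CPM with Sox11, and 33.9 and 38.1 CPM with Sox11 K91A. It did not pass (adjusted p = 0.133 and 0.513). *Mog* (chr17:37010743-37023398), a glycoprotein of the outer myelin surface, had 72 and 64 counts with control, 169 and 351 with Sox11, and 264 and 156 with Sox11 K91A. Both control libraries lay below the others. *Mog* rose by 2.02 on the log2 scale with Sox11 (SE 0.45, adjusted p = 0.0271, limma-voom), and its difference with Sox11 K91A was 1.72 (SE 0.46, adjusted p = 0.0578). Without both libraries that stood apart these were 1.25 (adjusted p = 0.125) and 1.37 (adjusted p = 0.0607). *Olig1* had 1 to 6 counts, *Olig2* none, and *Sox10*, a further lineage factor, at most 3. *Cnp*, a myelin enzyme listed for comparison, stayed between 22.7 and 28.3 CPM.

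Some RGC markers fell in the same comparisons. Of 12, 4 were lower with Sox11 (*Slc17a6*, *Thy1*, *Nefl* and *Nefm*), beside 10.2% of all genes, and 2 with Sox11 K91A (*Slc17a6* and *Nefm*), beside 4.81%. *Thy1*, the antigen used for panning, had 725 and 689 CPM with control, 259 and 46.3 CPM with Sox11, and 154 and 312 CPM with Sox11 K91A. Its log2 fold change with Sox11 was -2.69 (adjusted p = 0.0478), and -1.48 (adjusted p = 0.0828) without both libraries that stood apart. In that fit *Nefl* was at -0.78 (adjusted p = 0.0886), while *Slc17a6* and *Nefm* still passed. Sox11 replicate 2, the lowest library for *Thy1*, was also the lowest for *Calb1*, *Gad2*, *Th*, *Slc6a9* and *Aif1*. The RGC factors *Pou4f1*, *Pou4f2* and *Isl1* and the RNA-binding protein *Rbpms* did not pass in either comparison, and *Rbpms* stayed between 194 and 242 CPM. Whether the share of RGCs among the cells moved with any marker described here was not tested.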

How the data were processed

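RNA-seq was done on 6 libraries of cultured mouse RGCs, 2 for each of 3 AAVs. The authors used STAR (genome mm10) and RSEM, and deposited 1 table per library with raw expected counts (no normalization) and TPM values, which are scaled by gene length and library total. Versions, annotation and use of strand are not given in the sources used here. Symbols were assigned with GENCODE M21 (GRCm38) for 98% of 43346 Ensembl genes.

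Expected counts were rounded, filtered with filterByExpr (edgeR 4.0.16) to 15747 genes and scaled by TMM. All 6 libraries entered a single limma-voom fit (limma 3.58.1, R 4.3.3) without covariates. Adjusted p-values are two-sided Benjamini-Hochberg values over all genes tested. CPM uses TMM-scaled library sizes. Log2 differences between replicates, and the counts of genes over 2-fold apart, carry the default offset of edgeR for low counts. Confidence intervals are at 95%. Class sums of TPM have no test.

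Values in every library are given for markers past the threshold, the 2 with the highest mean TPM in each class, the 6 with the largest ratio between replicates in the control and in the Sox11 group (mean of at least 1 CPM), and by name those at 3 counts or fewer. Genes named beyond these were chosen after their values were seen. The members and lists were chosen with earlier results of these data known. Alternatives were edgeR's quasi-likelihood test, DESeq2 1.42.0, sample quality weights, other scalings, filters and fold thresholds, log2(TPM + 1), log2(TPM + 0.1), unrounded counts, fits of 2 groups, blocks, and leaving out libraries. A few genes listed for comparison are not reported here.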

Additional observations from a re-analysis of the deposited data

How the results depend on the processing

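Counts of genes and markers called moved with the processing. For Sox11 against control (3171 genes, 7 markers) sample quality weights gave 979 genes and 3 markers, log2(TPM + 1) 4 markers, log2(TPM + 0.1) 2107 genes and 3 markers, a fit of the 2 groups alone 1598 genes, DESeq2 12 markers, leaving out control replicate 2 and Sox11 replicate 2 together 2094 genes, and a block for those 2 libraries 14 markers. Leaving out 1 library at a time gave 0 to 3753 genes and 0 to 10 markers. For Sox11 K91A against control (1672 genes, 6 markers) the same alternatives gave 3144 genes with DESeq2, 3 markers with quality weights, 936 genes and 2 markers with log2(TPM + 1), 896 genes and 2 markers with log2(TPM + 0.1), 4108 genes and 12 markers without both libraries, and 2894 genes and 10 markers with their block. Leaving out 1 library gave 0 to 2563 genes and 0 to 6 markers. Between Sox11 K91A and Sox11, DESeq2 called 2 genes and no alternative called a marker. The cause of these differences was not tested.

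Replicate numbers did not pair the libraries across all 3 groups. The correlation of deviations of same-numbered libraries was 0.259 for control and Sox11, whose replicate 2 libraries stood apart. It was -0.0448 for control and Sox11 K91A, and -0.282 for Sox11 and Sox11 K91A. With the replicate block 2679 genes and 6 markers were called for Sox11, 1402 genes and 4 markers for Sox11 K91A against control, and 0 genes between the Sox11 groups. With the Sox11 K91A numbers crossed, an alternative chosen after seeing the data, 0 genes were called between the Sox11 groups.

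The direction of some amacrine log2 fold changes, none past the threshold in the fit reported, reversed. For Sox11 against control, *Slc32a1* (0.22) was -0.62 with edgeR, -0.64 with DESeq2, -0.046 with log2(TPM + 1), -0.20 with the replicate block, -0.92 without both libraries and -0.41 with their block. *Slc18a3* (-0.11) was 0.73 with edgeR, 0.69 with DESeq2, 0.25 and 0.10 with log2(TPM + 1) and log2(TPM + 0.1), 0.45 with the replicate block, 0.79 without both libraries and 0.58 with their block. *Chat* (2.66) was -0.02 without both libraries. For Sox11 K91A against control, *Gad1* (1.06) was -0.074 with edgeR, -0.10 with DESeq2, -0.97 without both libraries and -0.91 with their block. *Slc32a1* (1.25) was -0.72 and -0.46, and *Chat* (3.01) -0.42 without both libraries. Leaving out 1 library gave -2.65 to 1.03 for *Gad1*, -1.77 to 1.81 for *Slc32a1*, -0.79 to 5.51 for *Chat* and -2.66 to 2.81 for *Slc18a3* with Sox11, and -0.97 to 2.70 for *Gad1*, -0.72 to 2.85 for *Slc32a1*, -0.42 to 5.88 for *Chat* and -1.58 to 0.50 for *Th* with Sox11 K91A. Counts under about 30 limit *Pdgfra*, *Tek*, *Pecam1* and the photoreceptor and microglial genes.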
